A study of Homo sapiens with 8 samples.

Results

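The genes described here are 35 genes of the integrated stress response and of amino acid supply: the transcription factor ATF4 with its partners and upstream kinases, the stress effectors that it controls, enzymes that make amino acids and one-carbon units, and amino acid transporters. They were taken by symbol from a list drawn up with earlier results of these data known, and all 35 were found among the 60483 gene identifiers of the count files. Of these, 31 passed the filter on low counts and were tested, among 13982 tested genes. The RNA came from NB4 cells, a long-used human line of acute promyelocytic leukemia with its own PML/RARα fusion. In all 8 libraries the cells' own fusion had been knocked down by lentivirus, and for 72 h the cells carried in its place the empty vector, full-length PML/RARα with an HA tag, or its HA-tagged F158E or ΔIDR mutant, with 2 libraries in each of these 4 groups. The labels describe both mutants as unable to undergo phase separation. There was no group with the endogenous fusion intact, and 1 cell line was used. The labels number the libraries of a group as replications and say nothing of separate cultures, so p-values reflect how far these libraries spread, and that spread may be technical only.

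As background, the integrated stress response starts when a kinase phosphorylates the alpha subunit of the translation factor eIF2. EIF2AK4 (GCN2) does so when uncharged tRNA accumulates, and EIF2AK3 (PERK) when unfolded proteins accumulate in the endoplasmic reticulum. General translation then slows while the ATF4 mRNA is translated better, and ATF4 protein raises transcription of genes for amino acid synthesis, uptake and stress handling, often through a composite C/EBP-ATF element in their promoters. Since ATF4 is controlled largely through translation, RNA levels of ATF4 do not measure ATF4 protein, and no protein was measured here.

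The C/EBP-ATF element was searched as TGATGNAA, N being any base, on both strands of RefSeq promoter windows that run from 250 bases before to 50 bases after an annotated gene start (GRCh38.p14). Of the 35 genes, 27 had a window, and 7 of these (25.9%) held the motif, against 4.46% of 27305 genes with a window. SLC7A11, SHMT2, PYCR1, PSPH, GPT2, EIF4EBP1, GADD45A and NUPR1 had no window and were not searched, so nothing is said of their promoters. The 7 matches are shown, and the direction of each gene with full-length PML/RARα is given after them. Capitals mark the match, and each line reads 5′ to 3′ on the strand of the gene.
CHAC1: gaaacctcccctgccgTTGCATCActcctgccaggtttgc
ASNS: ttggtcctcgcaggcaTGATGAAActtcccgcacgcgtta
BCAT1: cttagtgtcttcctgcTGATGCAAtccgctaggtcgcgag
SLC3A2: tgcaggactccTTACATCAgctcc
SLC7A1: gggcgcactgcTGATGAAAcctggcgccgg
SLC1A5: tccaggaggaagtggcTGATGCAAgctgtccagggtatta
SLC1A4: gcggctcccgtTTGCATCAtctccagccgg
The printed stretches lie at chr15:40953246-40953285 on the plus strand for CHAC1, chr7:97872453-97872492 on the minus strand for ASNS and chr12:24949126-24949165 on the minus strand for BCAT1. Those of the transporters lie at chr11:62881725-62881748 (plus, SLC3A2), chr13:29595663-29595692 (minus, SLC7A1), chr19:46784888-46784927 (minus, SLC1A5) and chr2:64989381-64989410 (plus, SLC1A4). In CHAC1, SLC3A2 and SLC1A4 the element read TGATGNAA on the strand opposite to the gene. In ASNS, BCAT1, SLC3A2, SLC1A5 and SLC1A4 only 1 of several windows, at different annotated starts, held the match. Which start is used in these cells was not examined. A match is a description of these letters and was not tested as a binding site. With full-length PML/RARα, BCAT1, SLC3A2 and SLC7A1 rose against the empty vector and SLC1A4 fell, ASNS was not called, CHAC1 was at or near 0, and SLC1A5 was called higher by a small margin that held in 7 of 16 alternative fits. Their values are given with each gene. Among searched genes without a match, ATF4, ATF5, DDIT3, TRIB3, EIF2AK3, SESN2, DDIT4, VLDLR, MTHFD2 and SLC38A2 fell with full-length. EIF2AK4, EIF2S1, PSAT1, PHGDH, ALDH18A1 and SLC7A5 rose, also without a match.

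Gene counts per library ran from 16779364 to 21965389, and levels are given as CPM, counts scaled to 1000000 per library with TMM factors. RNA of the fusion partners differed between groups: RARA was at 24.1 and 22.1 CPM with the empty vector, 78.3 and 75.6 with full-length, 32.4 and 32.2 with F158E and 1351 and 1364 with ΔIDR, and PML at 51.0 and 52.8, 127 and 121, 65.8 and 66.1 and 445 and 440.0. These counts hold endogenous and introduced RNA together, and the amount of transgene RNA and the kind of transgene cannot be told apart in any comparison that follows. The summed level of 7 promyelocyte markers (MPO, PRTN3, AZU1, CTSG, CD33, CSF3R and SRGN) was 8570 to 8706 CPM with the empty vector, 6005 to 6034 with full-length, 8272 to 8370 with F158E and 11160 in both ΔIDR libraries. With full-length against the empty vector, 5 of the 7 were lower and 1 higher, beside 24.4% and 24.2% of all tested genes. The sum thus moved with the groups, and its part in the changes that follow was not tested. Of the defining markers of other cell types, 4 monocyte or macrophage genes summed to 4.83 to 14.7 CPM, lowest with full-length, 4 epithelial or fibroblast genes to 6.74 to 16.6, highest with full-length, 4 lymphoid genes to 3.24 to 5.06 and 3 erythroid genes to 0 to 0.183. In bulk RNA, fewer cells of a kind and less RNA per cell cannot be told apart.

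Against the empty vector, full-length PML/RARα went with falls in one part of the 35 genes and rises in another. The stress regulators ATF4, ATF5, DDIT3 and TRIB3, the mTORC1 inhibitors DDIT4 and SESN2, the mitochondrial one-carbon enzymes SHMT2 and MTHFD2 and the cystine transporter SLC7A11 were lower. The leucine transporter SLC7A5 with its heavy chain SLC3A2, the serine synthesis enzymes, the proline enzymes, BCAT1 and the kinase EIF2AK4 were higher. Genes were called by edgeR at a Benjamini-Hochberg adjusted p under 0.05 over all tested genes. Of the 31 tested genes, 26 were called, 13 higher and 13 lower, where 48.6% of all tested genes were called, 24.2% higher and 24.4% lower. The median log2 change of the 31 was 0.11 and their median absolute change 0.44, beside 0.00 and 0.36 over all tested genes. Called genes made up 83.9% of the 31, and higher and lower calls were equal in number. In 27 of the 31 genes the libraries of the 2 groups did not overlap, beside 71.7% of all tested genes.

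The mutants were next set against full-length. F158E had 27 of the 31 genes called against full-length, 14 higher and 13 lower, where 43.9% of all tested genes were called, 22.2% higher and 21.8% lower. Libraries did not overlap in 28 genes, beside 69.2% of all tested genes. ΔIDR also had 27 called, 13 higher and 14 lower, where 49.9% of all tested genes were called, 24.9% in each direction. Libraries did not overlap in 27, beside 72.7%. These comparisons use the same full-length libraries as the comparison with the empty vector, so values are given side by side and their agreement is not read as a result.

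**Figure D1:**
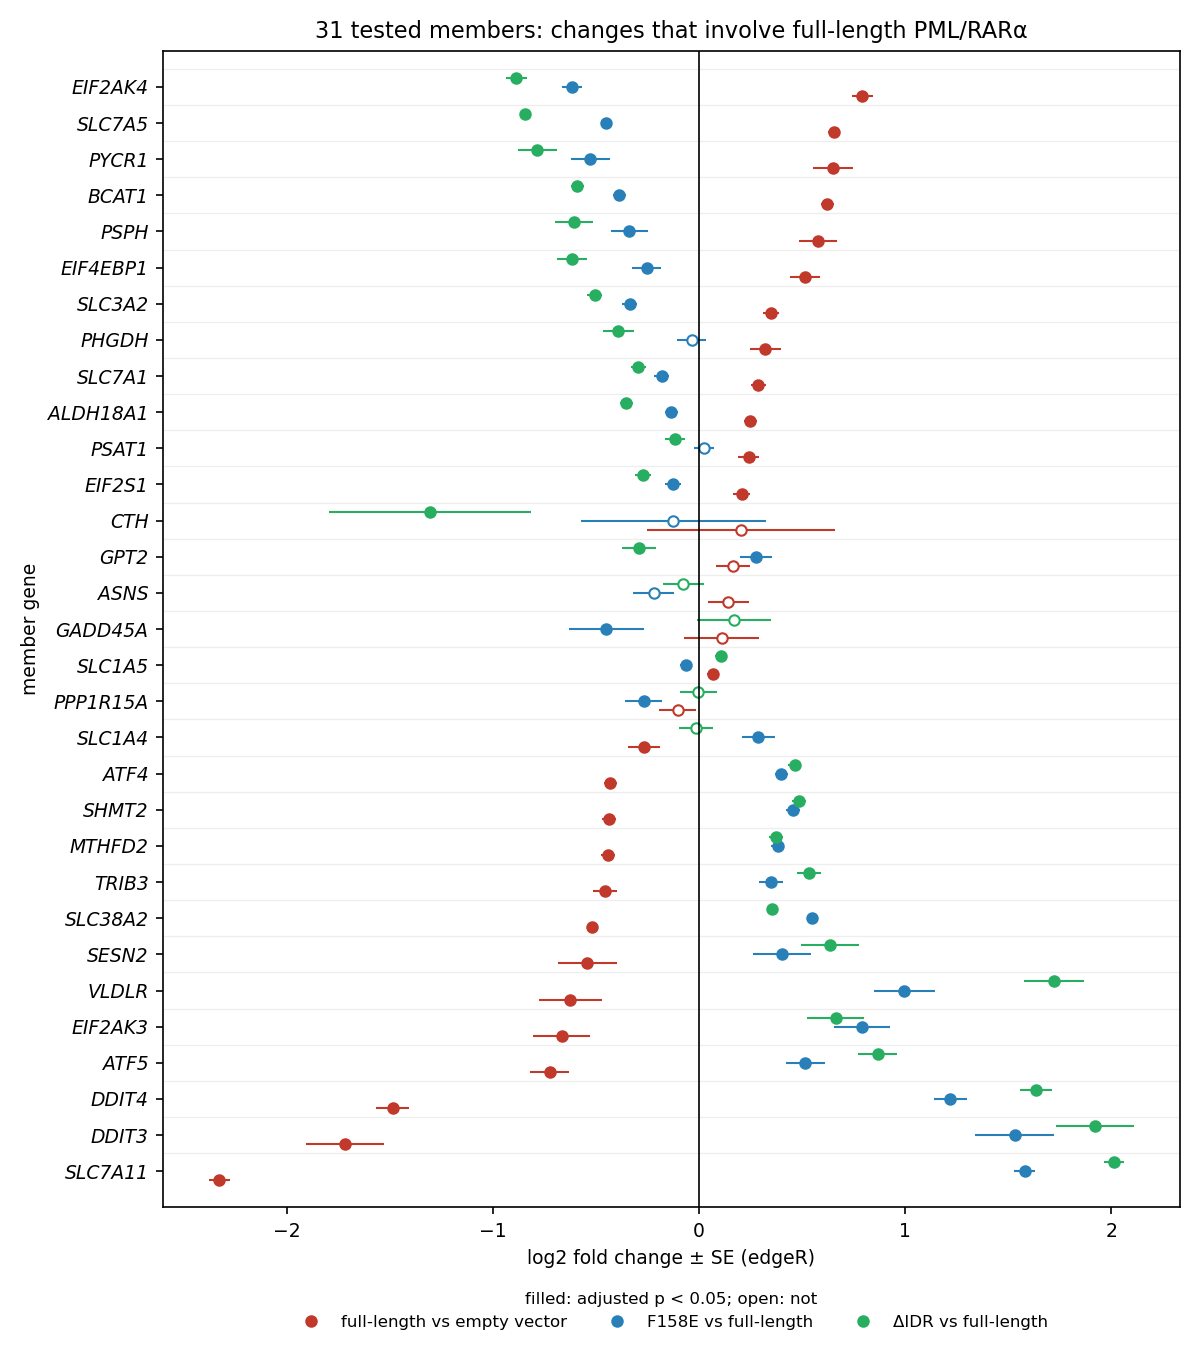
Log2 fold change (x axis, edgeR, bars are SE) of the 31 tested genes (y axis, ordered by full-length against empty vector) for full-length against empty vector (red), F158E against full-length (blue) and ΔIDR against full-length (green), with filled points called at adjusted p under 0.05. SLC7A11, DDIT3 and DDIT4 lie farthest below 0 in red, at -2.33, -1.72 and -1.49, and EIF2AK4 farthest above, at 0.79.

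Levels between genes were compared per length, as mean CPM per kilobase of merged GENCODE 29 exons, except for ratios of raw counts within a library. Exon length shared with other genes was not taken out. With the empty vector the most abundant were SLC1A5 (172), SLC38A2 (158.1), ATF4 (157) and SLC7A5 (141), and the least abundant of the tested genes were CTH (0.797) and VLDLR (1.42). With full-length PML/RARα the order at the top changed to SLC7A5 (222), SLC1A5 (180.3), ATF4 (117) and ALDH18A1 (115), while SLC38A2 stood at 110.3. SLC7A11 went from 28.0 CPM per kilobase with the empty vector to 5.59 with full-length. The remaining 4 genes were not tested. CHAC1, a glutathione-degrading enzyme, had 0 to 2 counts per library and NUPR1, a small stress-induced chromatin protein, 0 to 4. STC2, a secreted glycoprotein, had 0 and 1 counts with the empty vector, 6 and 3 with full-length, 7 and 8 with F158E and 10 and 11 with ΔIDR. CBS, the first enzyme of transsulfuration, was listed at 0 in all 8 libraries. GRCh38 holds a near-identical copy of CBS, so this 0 cannot be read as absence of its RNA.

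Among the 9 regulators, 5 were lower and 3 higher with full-length PML/RARα than with the empty vector. Of all tested genes, 24.4% were lower and 24.2% higher. ATF4 RNA, the centre of the response, was at 397 and 395 CPM with the empty vector, 299 and 289 with full-length, 386 and 389 with F158E and 409 and 401 with ΔIDR. The full-length libraries were below the 6 others (values after ± are SE of the edgeR fit), and these 6 lay within 386 to 409 CPM. The log2 change was -0.43 ± 0.03 for full-length against empty vector, with an adjusted p of 1.56e-20. Against full-length it was 0.40 ± 0.03 in F158E and 0.46 ± 0.03 in ΔIDR. Between the mutants and the empty vector no ATF4 change was called, at -0.03 ± 0.03 and 0.03 ± 0.03 (adjusted p = 0.657 and 0.630). ATF4 lies at chr22:39519695-39522685 and no part of its merged exons overlapped another annotated gene.

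DDIT3 (CHOP), the stress transcription factor downstream of ATF4, was 13.0 and 15.9 CPM with the empty vector, 5.40 and 3.38 with full-length, 12.6 and 12.8 with F158E and 14.5 and 18.7 with ΔIDR. Its fall with full-length was 3.29-fold (-1.72 ± 0.19, adjusted p = 8.07e-13), and no mutant differed from the empty vector by the test. In the full-length libraries DDIT3 stood on 95 and 58 counts, and 39.6% of its exon length is shared with neighbouring genes, among them MARS. How reads over the shared part were counted is not known. TRIB3, a pseudokinase that ATF4 and DDIT3 induce, was 112 and 109 CPM with the empty vector and 78.5 and 82.1 with full-length, a log2 change of -0.46 ± 0.06. It stood at 103 and 101 CPM with F158E and 113 and 119 with ΔIDR. ATF5, a relative of ATF4 that is also controlled through translation, was 51.9 and 46.1 CPM with the empty vector, 27.1 and 32.3 with full-length, 42.6 and 42.2 with F158E and 55.3 and 52.8 with ΔIDR. The full-length libraries were the lowest for all 3 genes. The ATF5 change was -0.72 ± 0.09 for full-length against empty vector, and 23.7% of its exon length is shared with other genes.

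The eIF2 kinases EIF2AK4 and EIF2AK3 moved in opposite directions, while EIF2AK1 and EIF2AK2 are counted only within a further list. EIF2AK4, the sensor of uncharged tRNA, was 113 and 104 CPM with the empty vector, 188 and 187 with full-length, 124 and 121 with F158E and 103 and 101 with ΔIDR. It rose 1.73-fold with full-length (0.79 ± 0.05, adjusted p = 1.44e-24), the largest rise among the 31 genes. EIF2AK3, the endoplasmic reticulum sensor, was 18.8 and 23.4 CPM with the empty vector, 12.2 and 14.4 with full-length, 23.0 and 22.9 with F158E and 20.6 and 21.4 with ΔIDR, a change of -0.67 ± 0.14 with full-length, and 15.1% of its exon length is shared. Their common substrate EIF2S1 (eIF2 alpha) ranged only from 214 to 267 CPM over the libraries and was 0.21 higher with full-length. EIF4EBP1, an inhibitor of cap-dependent translation that mTORC1 phosphorylates, was 60.6 and 56.7 CPM with the empty vector and 80.9 and 86.8 with full-length, a change of 0.51 ± 0.07. In F158E it was at 72.0 and 68.5 CPM, between those groups, and in ΔIDR at 55.4 and 54.0. PPP1R15A (GADD34), which directs a phosphatase to eIF2 alpha, was not called with full-length (-0.10 ± 0.09, adjusted p = 0.360) and was lowest with F158E, at 41.7 and 35.5 CPM beside 48.8 and 51.0 with the empty vector and 49.7 and 43.2 with full-length. Against full-length, the F158E calls on EIF2S1, EIF4EBP1 and PPP1R15A were lost in some fits that left out 1 library. The EIF2S1 change, -0.13 over all libraries, was not called without full-length replicate 1 or F158E replicate 1 (-0.07 to -0.09, adjusted p from 0.172 to 0.265), that of EIF4EBP1, -0.25, was not called without full-length replicate 2 (-0.20, adjusted p = 0.0605), and that of PPP1R15A, -0.27, was not called without full-length replicate 1 or F158E replicate 2 (-0.15 to -0.16, adjusted p from 0.279 to 0.297).

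**Figure D2:**
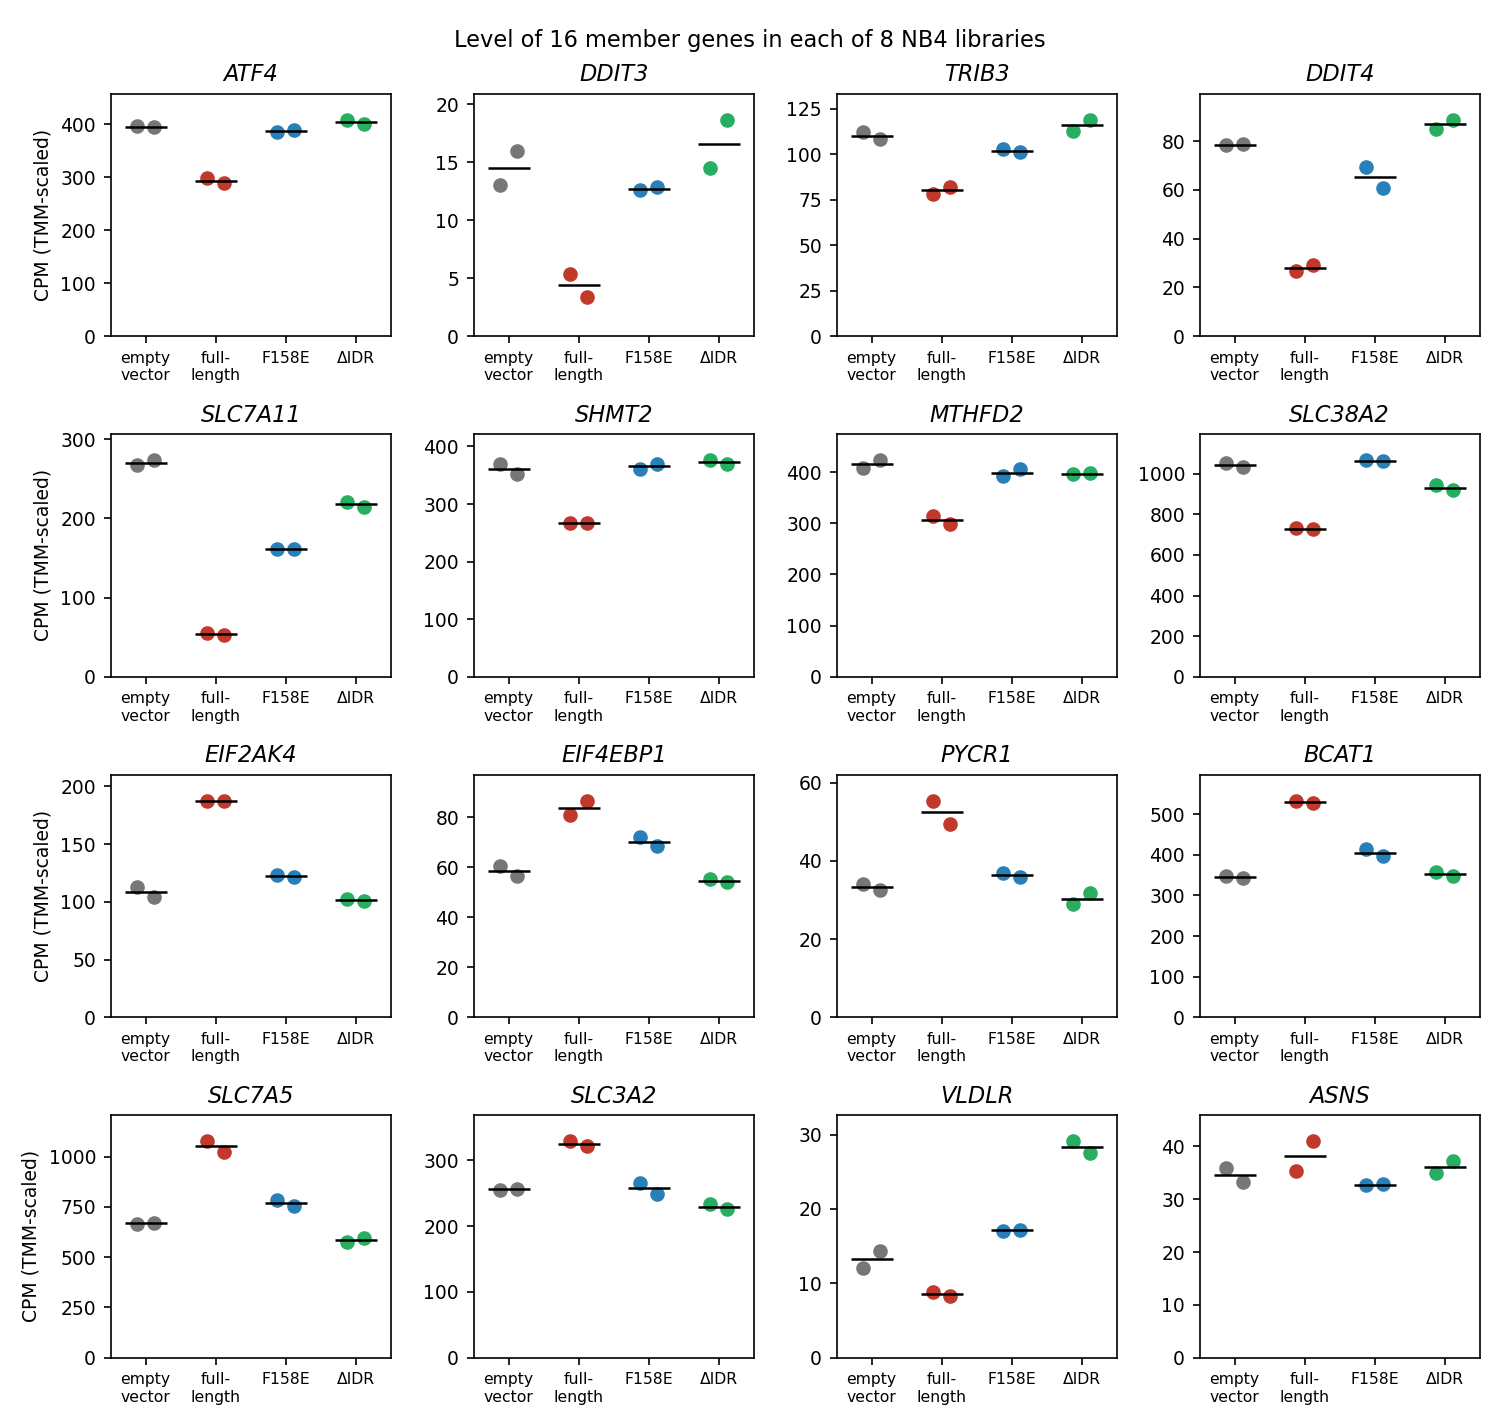
TMM-scaled CPM (y axis, each panel from 0) of 16 of the genes in each of the 8 libraries, by group (x axis), with points for libraries and lines for group means of 2. In the upper 8 panels, from ATF4 to SLC38A2, the full-length libraries are the lowest, and in the panels of EIF2AK4, EIF4EBP1, PYCR1, BCAT1, SLC7A5 and SLC3A2 they are the highest.

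Of the 7 stress effectors, 4 were tested, and 3 of them were lower with full-length PML/RARα than with the empty vector. Lower calls made up 24.4% of all tested genes. DDIT4 (REDD1), an inhibitor of mTORC1 signalling, was 78.3 and 78.7 CPM with the empty vector, 26.9 and 29.2 with full-length, 69.5 and 61.0 with F158E and 85.0 and 88.9 with ΔIDR. Full-length was 2.80-fold lower than the empty vector (-1.49 ± 0.08, adjusted p = 2.31e-29), and the groups did not overlap. An antisense gene covers 41.2% of the DDIT4 exon length. How reads over that part were counted is not known. The DDIT4 level may hold reads of that gene or lack some of its own. SESN2, a leucine-binding inhibitor of mTORC1 activation, was 19.95 and 18.8 CPM with the empty vector, 12.1 and 14.6 with full-length, 16.6 and 18.6 with F158E and 22.4 and 19.04 with ΔIDR, a change of -0.54 ± 0.14 with full-length. Its rise in F158E over full-length, 0.40, was not called without full-length replicate 1 or F158E replicate 2 (0.28 to 0.32, adjusted p from 0.136 to 0.229). VLDLR, a receptor for very low density lipoproteins, was 12.1 and 14.3 CPM with the empty vector, 8.81 and 8.34 with full-length, 17.0 and 17.2 with F158E and 29.1 and 27.6 with ΔIDR. In ΔIDR it stood 2.14-fold above the empty vector (1.10 ± 0.14, adjusted p = 5.37e-10). GADD45A, a growth arrest gene, lay between 7.40 and 12.6 CPM in all libraries and was not called with full-length against the empty vector. It was lowest with F158E, and its fall against full-length, -0.45, was not called without full-length replicate 2, F158E replicate 1 or F158E replicate 2 (-0.23 to -0.52, adjusted p from 0.0578 to 0.486).

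With full-length PML/RARα the serine synthesis enzymes were higher, and SHMT2 and MTHFD2, which act on serine and the one-carbon units made from it, were lower. Other enzymes of that kind were higher, among them the cytosolic SHMT1 (0.39) and the mitochondrial MTHFD1L (0.38) and MTHFD2L (0.47), which were singled out after their values were seen. PHGDH, PSAT1 and PSPH, the 3 steps from a glycolytic intermediate to serine, rose against the empty vector by 0.32, 0.24 and 0.58 on the log2 scale. PSPH, the last step, was 37.2 and 35.04 CPM with the empty vector, 57.0 and 50.8 with full-length, 42.4 and 43.0 with F158E and 38.1 and 33.0 with ΔIDR. PHGDH, the first step, was 61.0 and 58.3 CPM with the empty vector, 74.8 and 74.3 with full-length, 70.1 and 75.4 with F158E and 52.5 and 60.9 with ΔIDR. In F158E the PHGDH libraries spanned the full-length level and no change from full-length was called (-0.04 ± 0.07). PSAT1 likewise stood at 145 and 159 CPM in F158E and 149 and 149.5 with full-length, above 129.5 and 123 with the empty vector. The mitochondrial enzymes SHMT2, which passes the serine carbon to folate, and MTHFD2, which acts on the one-carbon unit so made, fell. SHMT2 was 369 and 352 CPM with the empty vector, 267 and 266 with full-length, 362 and 369 with F158E and 377 and 369.6 with ΔIDR (-0.43 ± 0.03 for full-length against empty vector, adjusted p = 7.66e-20). MTHFD2 was 409 and 424, 313 and 299, 393 and 405 and 396 and 398 CPM in the same order of groups, with a change of -0.44 ± 0.03. For both genes the full-length libraries were below all others, and neither mutant was called against the empty vector. Of MTHFD2 exon length, 33.2% is shared with other genes. The PSPH fall in F158E against full-length, -0.34, was not called without full-length replicate 1 (-0.25, adjusted p = 0.0803), and the small PSAT1 difference between ΔIDR and full-length (-0.12, adjusted p = 0.0452) was not called in any of the 8 fits that left out 1 library, with adjusted p from 0.063 to 0.270.

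Both proline enzymes rose. PYCR1, which makes the last step to proline, was 34.1 and 32.7 CPM with the empty vector, 55.4 and 49.3 with full-length, 36.9 and 35.9 with F158E and 28.95 and 31.8 with ΔIDR. Full-length stood 1.57-fold above the empty vector (0.65 ± 0.10). ALDH18A1, the first step from glutamate, was 361 and 370.3, 432 and 437, 400.3 and 391 and 342 and 338 CPM in the same order, a change of 0.25 ± 0.03. BCAT1, the cytosolic transaminase of branched-chain amino acids, was 347 and 342 CPM with the empty vector, 534 and 527 with full-length, 415 and 396 with F158E and 357 and 347 with ΔIDR (0.62 ± 0.03, adjusted p = 3.50e-31). For these 3 genes the full-length libraries were above all others, with F158E next. ASNS, asparagine synthetase, a much used readout of ATF4 activity, was 35.9 and 33.3 CPM with the empty vector, 35.3 and 41.0 with full-length, 32.7 and 32.9 with F158E and 34.98 and 37.3 with ΔIDR. It was called in none of the 6 comparisons, with adjusted p from 0.0635 to 0.801, although without full-length replicate 1 the F158E difference from full-length was called (-0.32, adjusted p = 0.0298). Of the exon length, 44.6% of ASNS and 29.7% of PYCR1 is shared with other annotated genes. How reads over those parts were counted is not known. GPT2, the mitochondrial alanine transaminase, was highest with F158E, at 69.0 and 61.5 CPM beside 49.0 and 47.0 with the empty vector, 52.2 and 55.5 with full-length and 45.3 and 42.9 with ΔIDR. Its rise over full-length in F158E (0.28) was not called without full-length replicate 1 or F158E replicate 1 (0.19 to 0.24, adjusted p from 0.0528 to 0.118), and its fall in ΔIDR (-0.29) was not called without ΔIDR replicate 2 (-0.24, adjusted p = 0.0508). CTH, the transsulfuration enzyme that releases cysteine, had 11 to 58 counts per library. It was lowest with ΔIDR, and its difference from full-length (-1.30) was not called without full-length replicate 2 or ΔIDR replicate 1 (-0.999 to -1.14, adjusted p from 0.103 to 0.141).

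All 7 transporters were called between full-length and the empty vector, 4 higher and 3 lower. Of all tested genes, 48.6% were called, 24.2% higher and 24.4% lower. The SLC1A5 call was lost in some alternative fits. SLC7A11, the light chain of the cystine-glutamate exchanger, had the largest change of the 31 genes. It was 267 and 274 CPM with the empty vector, 55.0 and 52.8 with full-length, 161 and 162 with F158E and 221 and 215 with ΔIDR. No group overlapped another, and the order from low to high was full-length, F158E, ΔIDR and empty vector. Full-length was 5.01-fold below the empty vector (-2.33 ± 0.05, adjusted p = 1.82e-58). F158E was 2.99-fold and ΔIDR 4.04-fold above full-length. Both mutants stayed below the empty vector, by 0.75 and 0.31 on the log2 scale, and ΔIDR was 0.43 above F158E. SLC7A11 lies at chr4:138164097-138242349 on the minus strand, and an antisense gene shares 8.97% of its exon length.

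SLC7A5, the light chain of a leucine and large neutral amino acid transporter, moved the other way. It was 666 and 672 CPM with the empty vector, 1078 and 1025 with full-length, 787 and 753 with F158E and 577 and 596 with ΔIDR. All 4 groups were apart here too, in the order ΔIDR, empty vector, F158E, full-length, and the full-length rise was 1.57-fold (0.65 ± 0.03, adjusted p = 3.29e-38). SLC3A2, the heavy chain that carries both light chains to the membrane, was 255 and 256, 329 and 322, 266 and 249 and 233 and 225 CPM with the empty vector, full-length, F158E and ΔIDR, a rise of 0.35 ± 0.04 with full-length. A ratio of counts within 1 library does not depend on scaling between libraries. It is not corrected for exon length, so it serves to compare groups and not the amounts of the 2 RNAs. The SLC7A11 to SLC3A2 count ratio was 1.05 and 1.07 with the empty vector, 0.167 and 0.164 with full-length, 0.604 and 0.648 with F158E and 0.948 and 0.952 with ΔIDR. For SLC7A5 to SLC3A2 it was 2.61 and 2.62, 3.28 and 3.19, 2.96 and 3.02, and 2.48 and 2.64 in the same order. The cystine light chain thus varied over a wide range relative to the shared heavy chain, and the leucine light chain over a narrow one. These ratios were not tested.

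**Figure D3:**
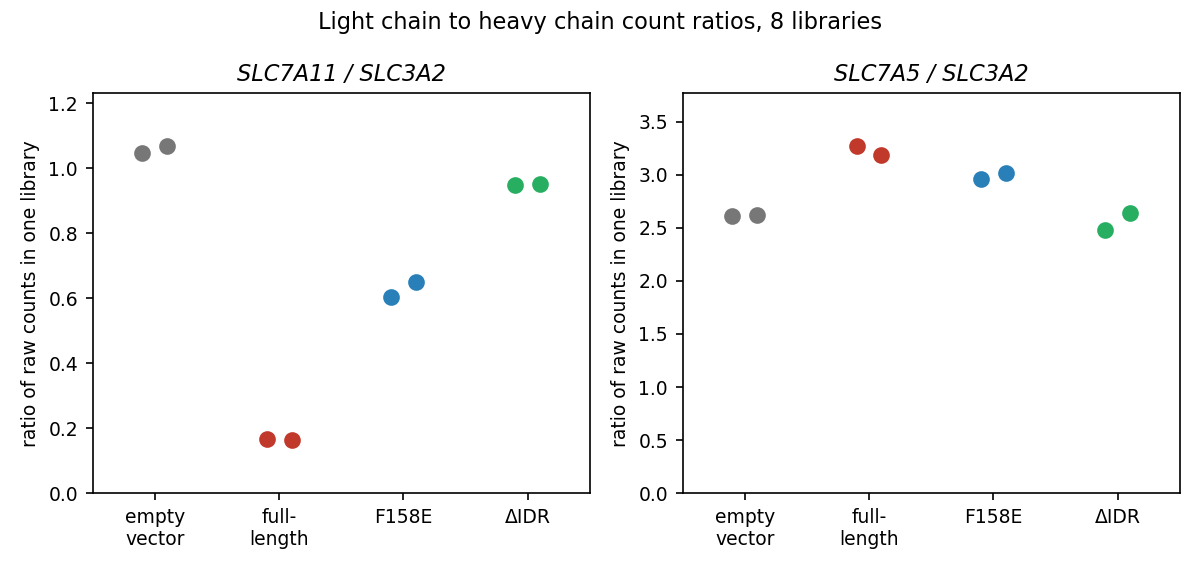
Ratio of raw counts within each of the 8 libraries (y axis, from 0) by group (x axis) for SLC7A11 over SLC3A2 and SLC7A5 over SLC3A2, 1 point per library. The first ratio is lowest with full-length, at 0.164 and 0.167, and the second is highest there, at 3.19 and 3.28.

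Of the other transporters, SLC38A2, a sodium-coupled carrier of small neutral amino acids, was 1054 and 1035 CPM with the empty vector, 732 and 725 with full-length, 1067 and 1060.0 with F158E and 942 and 919 with ΔIDR. Full-length was the lowest group (-0.52 ± 0.02, adjusted p = 2.17e-34) and ΔIDR the next. SLC7A1, an importer of arginine and lysine, was 298 and 276 CPM with the empty vector, 350.4 and 350.3 with full-length, 300.0 and 318 with F158E and 279.9 and 291 with ΔIDR, and rose by 0.29 with full-length. SLC1A4, an exchanger of alanine, serine, cysteine and threonine, was 59.2 and 59.2 CPM with the empty vector and 62.9 and 57.2 with F158E, but 49.7 and 48.6 with full-length and 49.5 and 47.9 with ΔIDR. It is the 1 transporter that was not called between ΔIDR and full-length (-0.01 ± 0.08, adjusted p = 0.903), and ΔIDR was below F158E. Its rise in F158E over full-length (0.29) was not called without F158E replicate 1 (0.22, adjusted p = 0.0675). SLC1A5, a glutamine carrier that shares 23.8% of its exon length with other genes, was 576 and 572, 613 and 589, 586 and 564 and 639 and 655 CPM in the order empty vector, full-length, F158E, ΔIDR. Its change with full-length was small (0.07 ± 0.03, adjusted p = 0.0409) and not called without empty vector replicate 1, empty vector replicate 2, full-length replicate 1 or F158E replicate 2 (0.03 to 0.07, adjusted p from 0.0502 to 0.447). Its change in F158E against full-length (-0.06) was not called in 5 of the 8 fits that left out 1 library, and in DESeq2 neither change was called.

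The mutants were also set against the empty vector. With F158E, 12 of the 31 genes were called against the empty vector, 9 higher and 3 lower, where 8.65% of all tested genes were called, 3.98% higher and 4.67% lower. Libraries did not overlap in 24 of the 31, beside 48.8% of all tested genes. The median absolute log2 change was 0.14 both for the 31 genes and for all tested genes. The 9 were EIF2AK4, EIF4EBP1, PSAT1, PHGDH, ALDH18A1, GPT2, BCAT1, SLC7A5 and SLC7A1, with log2 changes from 0.11 to 0.44, and the 3 lower were SLC7A11, PPP1R15A and DDIT4. The calls on SLC7A11 (-0.75 ± 0.04), GPT2 (0.44 ± 0.08), PSAT1 (0.27 ± 0.05), BCAT1 (0.24 ± 0.03) and SLC7A5 (0.20 ± 0.03) held in each of the 8 fits that left out 1 library. The other 7 did not. EIF2AK4 (0.17) was not called without empty vector replicate 2, F158E replicate 1 or F158E replicate 2 (0.12 to 0.19, adjusted p from 0.0567 to 0.372). EIF4EBP1 (0.26) was not called without empty vector replicate 2 or F158E replicate 1 (0.21 to 0.23, adjusted p from 0.123 to 0.185). PHGDH (0.29) was not called without empty vector replicate 2 or F158E replicate 2 (0.23 to 0.26, adjusted p from 0.0960 to 0.112). These 3 genes kept a positive difference in all such fits. ALDH18A1 (0.11) was not called without empty vector replicate 1 or F158E replicate 1 (0.10 to 0.10, adjusted p from 0.142 to 0.169). SLC7A1 (0.11) was not called without empty vector replicate 2 or F158E replicate 2 (0.05 to 0.06, adjusted p from 0.498 to 0.613). PPP1R15A (-0.37) was not called without empty vector replicate 2 or F158E replicate 2 (-0.26 to -0.34, adjusted p from 0.0617 to 0.160), and DDIT4 (-0.27) was not called without empty vector replicate 1, empty vector replicate 2 or F158E replicate 2 (-0.17 to -0.27, adjusted p from 0.0783 to 0.289). The number of calls was 6 without empty vector replicate 2 and 7 without F158E replicate 2.

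With ΔIDR, 8 genes were called against the empty vector, 2 higher and 6 lower, where 10.3% of all tested genes were called, 5.06% higher and 5.23% lower. Libraries did not overlap in 23 of the 31, beside 48.1% of all tested genes. Of the 9 regulators, 0 were among them, with absolute log2 changes up to 0.20 (DDIT3). Of the 7 transporters, 6 were called: SLC1A5 was higher (0.17 ± 0.03), and SLC7A11 (-0.31 ± 0.04), SLC7A5 (-0.19 ± 0.03), SLC38A2 (-0.17 ± 0.02), SLC3A2 (-0.16 ± 0.04) and SLC1A4 (-0.28 ± 0.08) were lower. SLC7A1, the arginine carrier, was not called (-0.01). The remaining calls were the rise of VLDLR and a fall of ALDH18A1 (-0.10 ± 0.03). VLDLR, SLC7A11, SLC7A5, SLC38A2 and SLC1A5 held in each of the 8 fits that left out 1 library. The SLC3A2 change was not called without ΔIDR replicate 2 (-0.12, adjusted p = 0.0969), that of SLC1A4 was not called without empty vector replicate 1, empty vector replicate 2 or ΔIDR replicate 2 (-0.24 to -0.27, adjusted p from 0.0885 to 0.141), and that of ALDH18A1 was not called without empty vector replicate 1, empty vector replicate 2, ΔIDR replicate 1 or ΔIDR replicate 2 (-0.08 to -0.11, adjusted p from 0.0794 to 0.333). Without ΔIDR replicate 2, 5 genes were called. The median absolute log2 change of the 31 genes was 0.14 with F158E and 0.11 with ΔIDR, beside 0.14 over all tested genes in each comparison. Calls were thus more frequent among the 31 genes though their median change was no larger in size. The genes were chosen with earlier results of these data known. The part of that choice and of count depth in this was not tested.

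**Figure D4:**
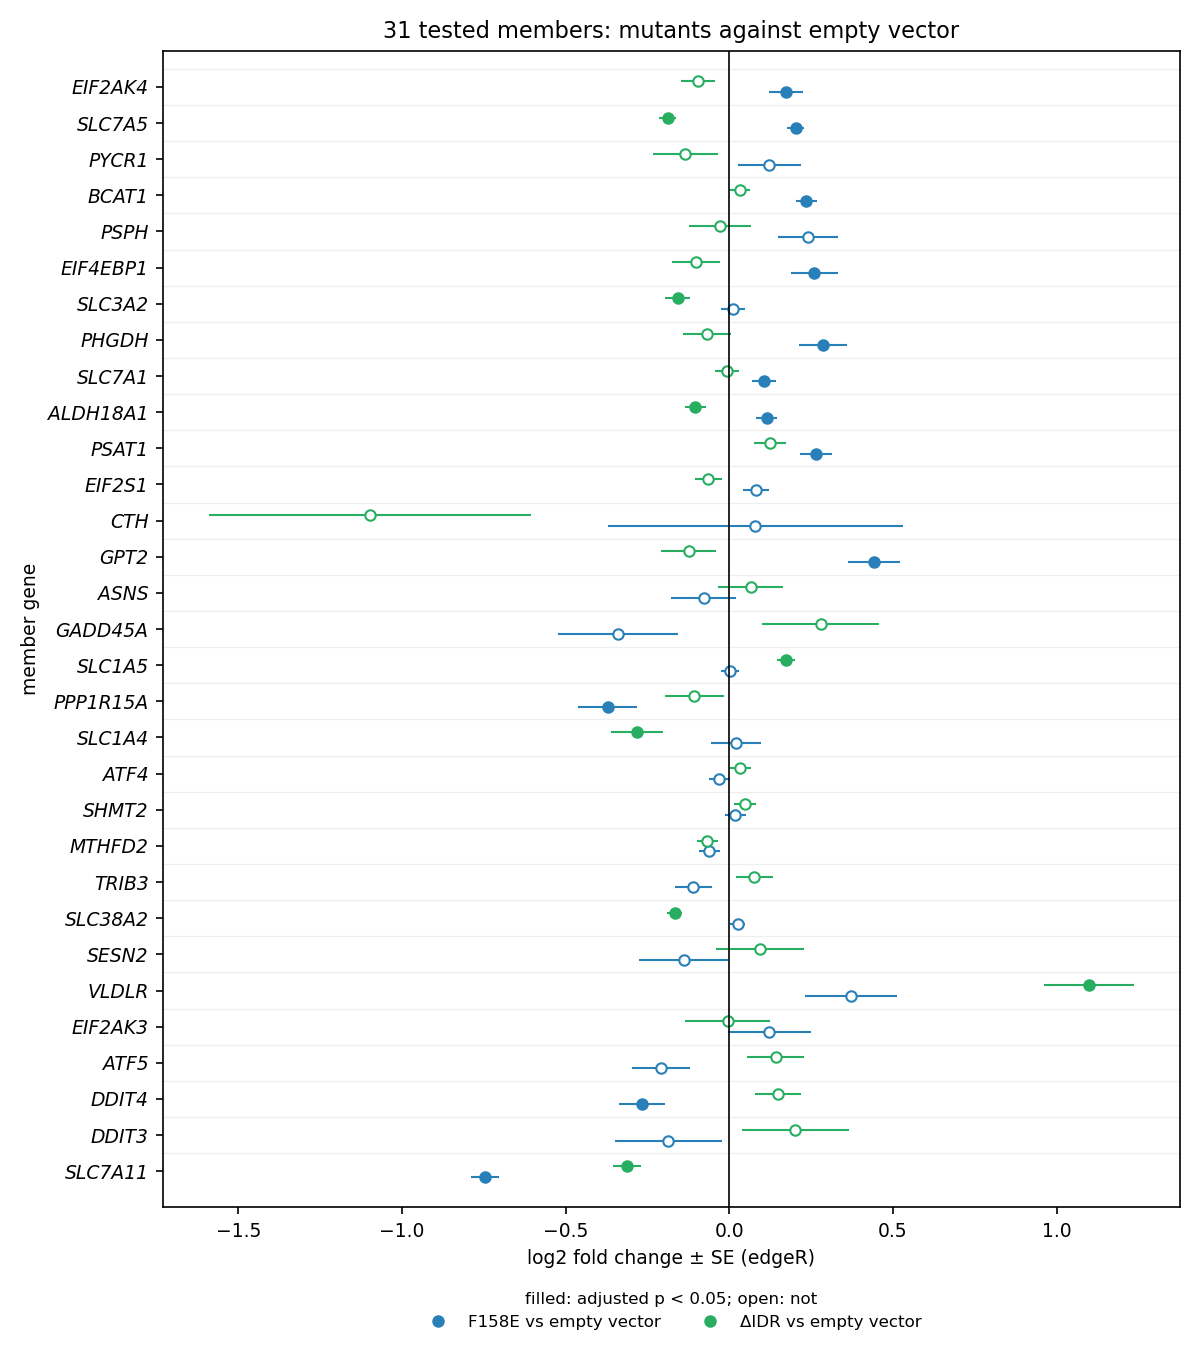
Log2 fold change against the empty vector (x axis, edgeR, bars are SE) of the 31 tested genes (y axis, ordered by full-length against empty vector) in F158E (blue) and ΔIDR (green), with filled points called at adjusted p under 0.05. VLDLR lies farthest to the right in ΔIDR, at 1.10, and SLC7A11 is the lowest called point in F158E, at -0.75.

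The mutants were also compared with each other. Of the 31 genes, 22 were called between ΔIDR and F158E, 8 higher and 14 lower in ΔIDR, where 18.5% of all tested genes were called, 9.17% higher and 9.37% lower. Libraries did not overlap in 30 of the 31, beside 54.2% of all tested genes. Higher in ΔIDR were VLDLR (0.73 ± 0.13), GADD45A, SLC7A11 (0.43 ± 0.04), DDIT4 (0.42 ± 0.07), ATF5 (0.35 ± 0.09), PPP1R15A, TRIB3 and SLC1A5. All 6 called enzymes were lower in ΔIDR: GPT2 (-0.57 ± 0.08), PHGDH (-0.35 ± 0.07), PSPH, ALDH18A1, BCAT1 and PSAT1. Of the transporters that were lower in ΔIDR, SLC7A5 differed most (-0.39 ± 0.03), and SLC1A4, SLC38A2, SLC3A2 and SLC7A1 were lower as well. EIF2AK4 (-0.27 ± 0.05), EIF4EBP1 (-0.36 ± 0.07) and EIF2S1 completed the lower set, and ATF4 was not called (0.06 ± 0.03). The RARA level was 42.0-fold higher in ΔIDR than in F158E, so these differences cannot be told apart from the amount of transgene RNA. Of the 22 calls, 13 held in each of the 8 fits that left out 1 library, and 9 did not. GADD45A (0.62) was not called without F158E replicate 2 or ΔIDR replicate 2 (0.54 to 0.56, adjusted p from 0.0785 to 0.0897). TRIB3 (0.19) was not called without F158E replicate 2 or ΔIDR replicate 2 (0.16 to 0.18, adjusted p from 0.0755 to 0.151), and PPP1R15A (0.27) was not called without F158E replicate 2 or ΔIDR replicate 1 (0.16 to 0.23, adjusted p from 0.162 to 0.385). Of the lower genes, EIF2S1 (-0.15) was not called without F158E replicate 2 or ΔIDR replicate 2 (-0.08 to -0.12, adjusted p from 0.0904 to 0.296), and PSPH (-0.27) was not called without F158E replicate 1, F158E replicate 2 or ΔIDR replicate 2 (-0.15 to -0.27, adjusted p from 0.0961 to 0.469). PSAT1 (-0.14) was not called without F158E replicate 2, ΔIDR replicate 1 or ΔIDR replicate 2 (-0.07 to -0.15, adjusted p from 0.0686 to 0.577). Among transporters SLC3A2 (-0.17) was not called without F158E replicate 1 (-0.12, adjusted p = 0.0798), SLC7A1 (-0.11) was not called without F158E replicate 2 or ΔIDR replicate 1 (-0.06 to -0.08, adjusted p from 0.222 to 0.408) and SLC1A4 (-0.30) was not called without F158E replicate 1 or ΔIDR replicate 2 (-0.23 to -0.27, adjusted p from 0.0579 to 0.116). Without F158E replicate 2, 5 genes were called higher in ΔIDR.

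The order of groups was counted by libraries. Both full-length libraries were below the 6 others in 12 of the 31 genes (38.7%), where 24.9% of all tested genes showed this: ATF4, ATF5, DDIT3, TRIB3, EIF2AK3, SESN2, DDIT4, VLDLR, SHMT2, MTHFD2, SLC7A11 and SLC38A2. They were above the 6 others in 10 (32.3%), beside 25.6% of all tested genes: EIF2AK4, EIF2S1, EIF4EBP1, PSPH, ALDH18A1, PYCR1, BCAT1, SLC7A5, SLC3A2 and SLC7A1. ΔIDR was the highest group in 7 (22.6%, beside 10.0%), namely ATF4, ATF5, TRIB3, DDIT4, VLDLR, SHMT2 and SLC1A5, and the lowest in 8 (25.8%, beside 9.33%), namely EIF2AK4, EIF4EBP1, ALDH18A1, PYCR1, CTH, GPT2, SLC7A5 and SLC3A2. F158E was the highest group in 2 genes, GPT2 and SLC38A2 (6.45%, beside 4.56%), and the lowest in 3, PPP1R15A, GADD45A and ASNS (9.68%, beside 4.59%). The empty vector was the highest group in MTHFD2 and SLC7A11 (6.45%, beside 6.22%) and the lowest in PSAT1 and BCAT1 (6.45%, beside 5.26%). An order of libraries is no call: with ΔIDR against the empty vector, ATF4, ATF5, TRIB3, DDIT4 and SHMT2 did not pass the test.

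Other genes of the pathway were described from 8 lists, to be read beside the 24.2% higher and 24.4% lower of all tested genes with full-length against the empty vector. Of 20 aminoacyl-tRNA synthetases, which charge tRNA with amino acids, 12 were higher and 3 lower with full-length than with the empty vector (median log2 change 0.19). EPRS1 rose from 281 and 282 to 437 and 472 CPM, GARS1 from 257 and 249.6 to 362 and 374 and IARS1 from 451 and 462 to 576 and 579, while FARSA fell (-0.15). Of 15 genes of eIF2 and its kinases, phosphatase and exchange factor, 7 were higher and 3 lower, among them the eIF2 gamma subunit EIF2S3 (0.68), the exchange factor subunit EIF2B1 (0.64) and GCN1, the activator of EIF2AK4 (0.40), on the higher side. DNAJC3, an inhibitor of eIF2 kinases, fell from 227 and 237 to 113 and 116 CPM. Of 10 tested further enzymes of serine, folate and one-carbon metabolism, 8 were higher and 1 lower. MTHFD1, the cytosolic folate enzyme, was higher (0.36 ± 0.04), and so were SRM (0.56), a spermidine synthase, and AHCY (0.23). Of 17 tested other amino acid enzymes, 9 were higher and 1 lower. Among them ASS1, argininosuccinate synthase (0.63), and GOT2, a mitochondrial aspartate transaminase (0.53), rose, and GCLM, a subunit of the enzyme that starts glutathione synthesis, fell (-0.83).

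Among the remaining lists, 2 had more lower than higher calls. Of 22 tested other stress genes linked to ATF4, 4 were higher and 11 lower with full-length (median -0.35). SQSTM1, an autophagy receptor, was 153 and 137 CPM with the empty vector, 78.9 and 65.4 with full-length, 102 and 103 with F158E and 167 and 182 with ΔIDR. CEBPB, a C/EBP partner of ATF4, was 19.2 and 22.1, 7.96 and 6.30, 16.4 and 15.8 and 42.5 and 41.4 CPM in the same order, and in ΔIDR it was 1.03 above the empty vector. XPOT, a tRNA exporter, fell (-0.30) and AKNA rose (1.16). Of 15 other ATF-family and bZIP factors, 2 were higher and 8 lower, with NFE2L2, the master factor of antioxidant genes (209 and 207 CPM with the empty vector and 124 and 129 with full-length), its partner MAFG (-0.93) and ATF6 (-0.35) lower and NFE2L1 higher (0.35). Of 18 tested genes of amino acid sensing upstream of mTORC1, 8 were higher, among them SEH1L (0.66), MIOS (0.77) and NPRL2 (0.52), and 3 were lower. SESN3, a relative of SESN2, fell most in that list, from 453 and 466 to 124 and 129 CPM (-1.86 ± 0.04), and stood at 423 and 423 with F158E and 502 and 482 with ΔIDR. Of 16 tested other amino acid transporters, 4 were higher and 4 lower, with SLC6A6, the taurine carrier (-1.34), among the lower and SLC38A1 (0.39), SLC7A2 (0.46) and SLC16A10 (1.18) among the higher.

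**Figure D5:**
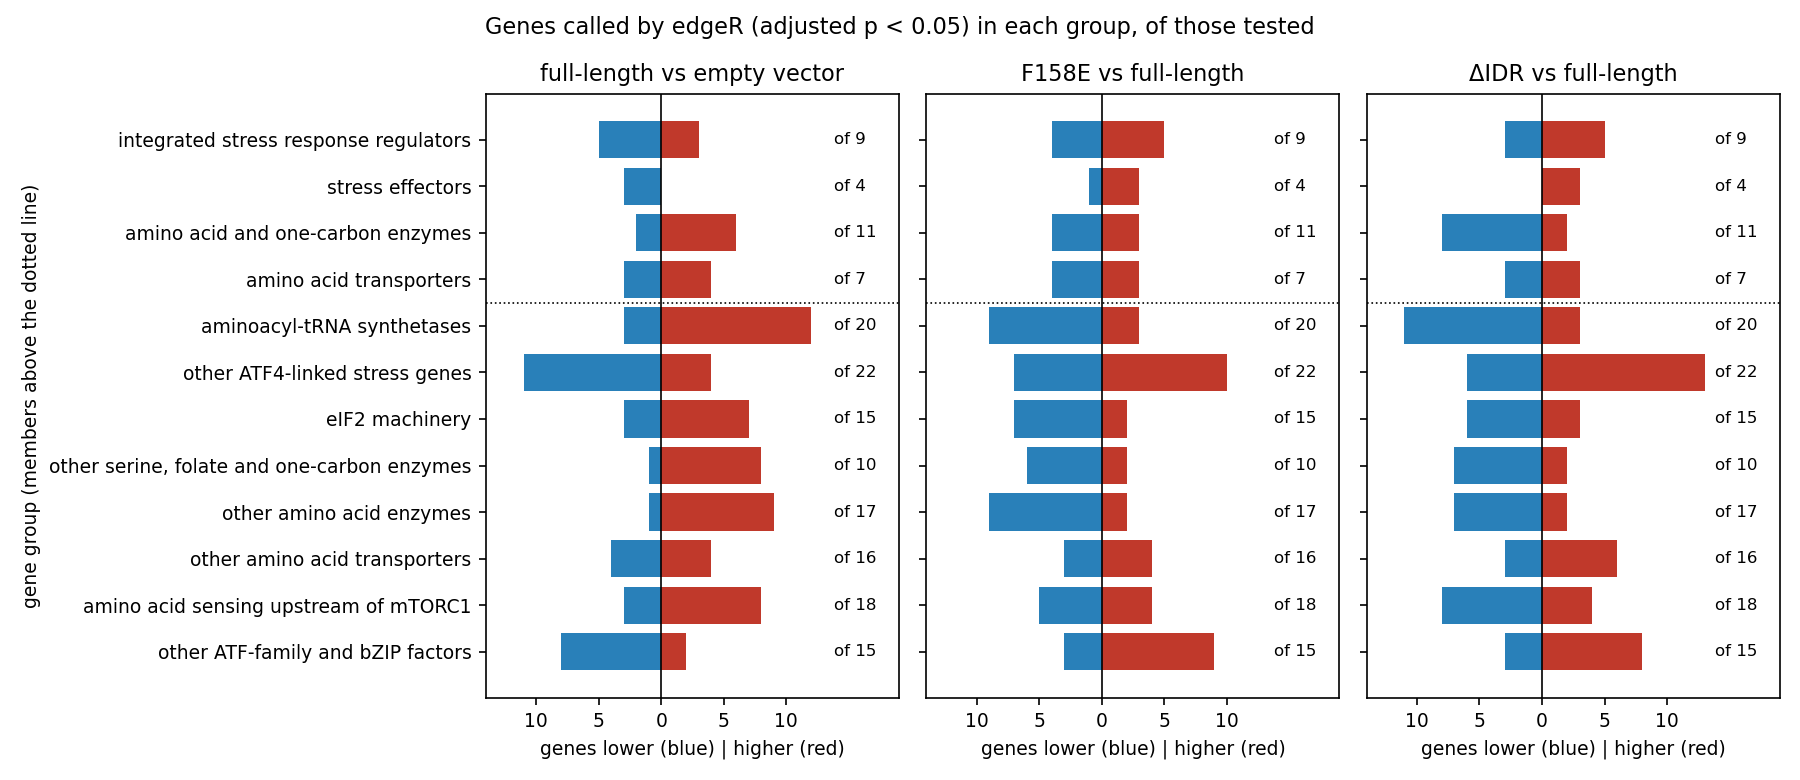
Number of genes called higher (red, to the right) or lower (blue, to the left) by edgeR (x axis) in each role group of the 35 genes and in the 8 further lists (y axis), for full-length against empty vector, F158E against full-length and ΔIDR against full-length, with the number tested at the right of each bar. In the first panel 12 of 20 synthetases are higher and 11 of 22 other ATF4-linked genes are lower. Background shares of all tested genes are 24.2% higher and 24.4% lower in that panel. They are 22.2% higher and 21.8% lower for F158E against full-length, and 24.9% in each direction for ΔIDR against full-length.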

How the data were processed

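RNA-seq of NB4 cells was available as 8 libraries, 2 in each of 4 groups read from the labels. Per the labels' protocols, ribosomal RNA was removed from total RNA before NEBNext Ultra library preparation. The strand setting is not given, and the libraries were taken as without strand marks. The authors deposited raw read counts per gene, with no normalization. Builds hg38 and GRCh38 are named in the submitters' processing notes, while the aligner, counter and annotation release are not given in the sources used here. Between 87.9% and 88.7% of the reads counted in a library fell on genes (16779364 to 21965389 gene counts), and lines that name no gene were left out.

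Gene symbols matched 56321 of 60483 identifiers, and positions, exon lengths and shared exon length came from GENCODE 29. That release held 56753 of the 60483 identifiers. The counts were thus made with another annotation, in which the overlaps between genes may differ. Counts were fitted with edgeR 4.0.16 in R 4.3.3: quasi-likelihood over all 8 libraries, TMM factors, filterByExpr (13982 genes kept), no replicate block, and Benjamini-Hochberg adjustment over all tested genes in each of 6 comparisons, with calls at adjusted p under 0.05. SE is the absolute log2 change divided by the square root of F. Alternatives were RLE and upper-quartile scaling, other filters, DESeq2 1.42.0, a fit of the 2 groups alone, a replicate block, a test against a 1.5-fold change and leaving out each library. Promoter windows came from RefSeq (GRCh38.p14), and positions are 1-based.

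Full values were planned for ATF4 and for members of at least 3 mean log2 CPM that were called with full-length against empty vector, or called in a mutant comparison with a log2 change of at least 0.5 in size; ranges and counts serve for the rest, some of which are also given by library. In every further list, 3 genes with the lowest adjusted p are named on its more frequent side and 1 on the opposite side. Some genes that this rule picks are not reported here. Members, lists and rules were chosen with earlier results of these data known.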

Additional observations from a re-analysis of the deposited data

How the results depend on the processing

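Of the log2 changes of single genes under all alternatives, 2767 kept their call status, 204 lost a call, 5 gained one and 0 reversed. RLE or upper-quartile scaling, other filters, DESeq2 and fits of the compared groups alone gave 25 to 26 calls for full-length against empty vector (26 in the fit reported), 25 to 26 for F158E (27) and 26 to 27 for ΔIDR (27) against full-length, 11 to 12 for F158E (12) and 8 for ΔIDR (8) against the empty vector, and 18 to 23 for ΔIDR against F158E (22). Tested against a 1.5-fold change (edgeR, glmTreat), 5 genes were called for full-length against empty vector (2 higher, EIF2AK4 and SLC7A5, and 3 lower, DDIT3, DDIT4 and SLC7A11), 4 for F158E against full-length (4 higher, 0 lower), 8 for ΔIDR against full-length (5 higher, 3 lower), 1 for F158E against empty vector (0 higher and 1 lower, SLC7A11), 1 for ΔIDR against empty vector (1 higher, VLDLR, and 0 lower) and 0 for ΔIDR against F158E (0 higher, 0 lower, where the fit reported called 22). Of all tested genes, this test called 9.5%, 6.67%, 11.5%, 0.172%, 0.787% and 1.59% in the same order. Here fewer genes pass because the test asks for a larger change. Leaving out each library in turn gave 6 to 12 calls for F158E against empty vector (5 to 9 higher, 1 to 3 lower), 5 to 8 for ΔIDR against empty vector (3 to 6 lower) and 15 to 22 for ΔIDR against F158E (5 to 8 higher). In the same fits 4.26% to 8.60%, 5.94% to 10.0% and 12.3% to 17.4% of all tested genes were called, beside 8.65%, 10.3% and 18.5% with all libraries. The library left alone in its group is there assumed to vary like the other groups. These fits have fewer samples.

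With the replicate number as a replicate block, the calls were 26, 27, 27, 12, 8 and 22 in the 6 comparisons, as without it. The deviations of same-numbered libraries from their group means correlated at -0.0163 to 0.0206 between groups, so no shared effect of the replicate number was seen. These values cannot tell whether same-numbered libraries were cultured or prepared together. Depth limits CHAC1, NUPR1 and STC2, at 11 counts or fewer per library, and CTH, at 11 to 58.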

Other observations

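Ratios of raw counts within a library, not corrected for exon length, also set regulators beside ATF4. DDIT3 counts were 0.0327 and 0.0404 of ATF4 counts with the empty vector, 0.0181 and 0.0117 with full-length, 0.0327 and 0.0330 with F158E and 0.0354 and 0.0466 with ΔIDR. The full-length libraries were the lowest. PPP1R15A counts were 0.123 and 0.129 of ATF4 counts with the empty vector and 0.166 and 0.149 with full-length. They were 0.108 and 0.0912 with F158E and 0.117 and 0.112 with ΔIDR, with full-length highest and F158E lowest. ATF4, the divisor, was lower with full-length than with the empty vector (-0.43), and PPP1R15A itself was not called there (-0.10). SLC7A11 counts were 0.401 and 0.407 of SLC7A5 counts with the empty vector and 0.0510 and 0.0515 with full-length, and stood at 0.204 and 0.215 with F158E and 0.382 and 0.360 with ΔIDR. These ratios were not tested.

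Outside the 35 genes, ASS1, the argininosuccinate synthase of arginine synthesis, was 108 and 108 CPM with the empty vector, 165 and 168 with full-length, 118 and 114 with F158E and 57.6 and 55.2 with ΔIDR. ΔIDR was -0.94 ± 0.06 from the empty vector on the log2 scale (edgeR, adjusted p = 1.67e-24). GCLM was 119 and 129 CPM with the empty vector, 71.2 and 68.6 with full-length, 92.1 and 98.5 with F158E and 90.9 and 97.2 with ΔIDR, and both mutants were below the empty vector, at -0.38 ± 0.06 and -0.40 ± 0.06. These genes were singled out after their values were seen.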
